A study of Mus musculus with 7 samples.

Results

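The autophagy and mitophagy genes described here are 44 genes chosen by symbol for their known roles in initiation, nucleation, conjugation, cargo selection and mitophagy, out of 22877 rows in the authors' table. All 44 had a row. The RNA was that of oocytes from secondary follicles of C57BL/6J females aged 8 weeks, in 2 groups. In the Mfn1-/- group, floxed Mfn1 was deleted by a Cre transgene under the Zp3 promoter, which acts in growing oocytes and leaves Mfn1 intact in granulosa cells, and the WT group consisted of wild-type littermates. Each library pooled 5 oocytes, and there were 4 libraries of WT and 3 of Mfn1-/- oocytes by their labels, which is not the number given in the study's methods. For each gene, the table gives 1 mean of normalized counts per genotype, and values of single libraries were not analysed here. No spread between replicates, new test or depth per library can therefore be given, and each difference below is a difference between 2 means of unknown error. The authors' own comparison of the genotypes, with p-value and FDR, was not used.

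Autophagy delivers cytoplasm and organelles to the lysosome inside a double-membrane vesicle, the autophagosome. The ULK1 kinase complex starts the process, a class III PI3-kinase complex marks the site, and lipid transfer proteins let the membrane grow. A ubiquitin-like conjugation system then attaches proteins of the ATG8 family (LC3 and GABARAP) to the membrane, and cargo receptors tie the cargo to them. Mitophagy is the branch that removes mitochondria, through the kinase PINK1 and ubiquitin or through receptors that sit in the outer mitochondrial membrane. The mitofusin MFN1 lies in that same membrane, where it fuses mitochondria with each other, and the oocyte carries the mitochondria that the embryo inherits.

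Log2 fold changes were computed from the means, Mfn1-/- over WT, with a pseudocount of 0.1 on each mean. Folds of genes with low means are therefore understated. Differences over 2-fold on this scale are counted below. Mfn1 itself averaged 0.0577 in Mfn1-/- oocytes and 0.616 in WT, a log2 fold change of -2.18, or -3.21 with a pseudocount of 0.01. The median log2 fold change was 0.04 over all genes and 0.16 over the 6226 genes whose mean across the 7 libraries reached 1, called expressed genes below. A gene near 0.16 therefore sits in the middle of the expressed genes. Oocyte markers were present in both genotypes, with summed means of 2370 and 2100 for all 12 markers listed. Of 14 granulosa cell markers 12 had a row, with summed means of 8.21 in Mfn1-/- oocytes and 6.4 in WT. Inha (1.87 and 0.954) and Serpine2 (5.91 and 4.79) made up most of that sum. Without these 2 genes, both higher in Mfn1-/- oocytes, the summed means were 0.429 and 0.656. Of the 12 markers, 4 were higher in Mfn1-/- oocytes and 8 lower. Of 8 theca and stroma markers 5 had a row, with sums of 0.21 in both genotypes. In bulk samples such as these, fewer cells of a type and less RNA per cell cannot be told apart. Normalized counts are not stated to be corrected for transcript length, so levels of different genes are not compared.

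Across the 44 genes, Sqstm1 was the only gene past 2-fold higher in Mfn1-/- oocytes (1 of 44, against 4.87% of all genes), and 0 of 44 were past 2-fold lower, against 2.75% of all genes. With the median of expressed genes subtracted, these shares of all genes became 3.58% higher and 4.0% lower. Gabarap, Fundc1, Atg14 and Atg4b followed, between 1.5-fold and 2-fold higher. In all, 5 of 44 were past 1.5-fold higher and 0 past 1.5-fold lower, against 12.4% and 6.88% of all genes. The remaining 39 genes lay within 1.5-fold of WT. The median log2 fold change of the 44 genes was 0.09, with a range from -0.38 (Rb1cc1) to 1.26 (Sqstm1). This median turned to -0.07 with the median of expressed genes subtracted and to -0.08 after adjustment for transcript GC content on expressed genes, so it has no settled sign.

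**Figure D1:**
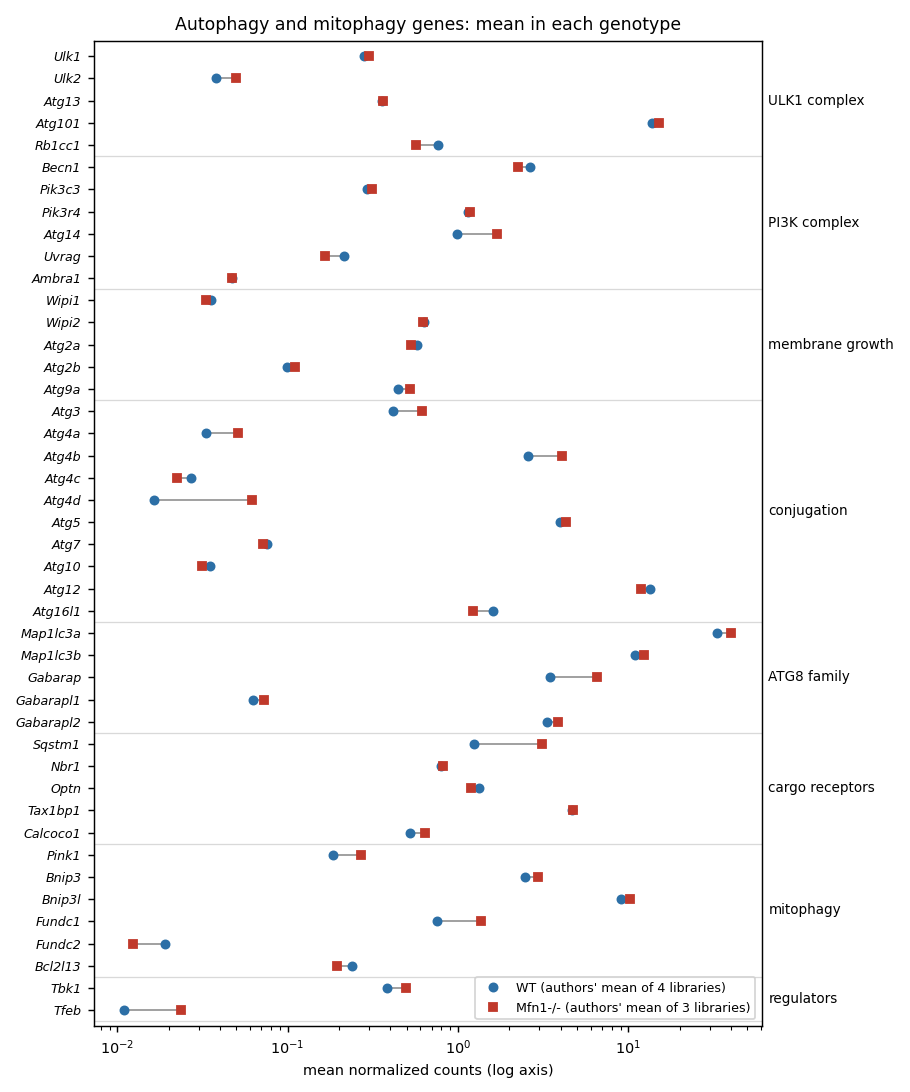
Mean normalized counts (log axis) of the 44 genes, grouped by role, with circles for WT and squares for Mfn1-/- oocytes; each point is the authors' mean over libraries and carries no error bar. The widest gaps between the genotypes among genes with a mean of at least 1 are those of Sqstm1 (3.1 against 1.24) and Gabarap (6.57 against 3.46).

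How many genes lay on each side of 0 depended on the centring. As the authors normalized the data, 29 of the 44 genes (65.9%) were higher in Mfn1-/- oocytes, beside 56.7% of all genes. After subtraction of the median of expressed genes, 17 of the 44 were higher. Likewise 36.7% of all genes were then higher. The 5 genes past 1.5-fold stayed above 0 in both, with Sqstm1 at 1.10, Gabarap at 0.75, Fundc1 at 0.62, Atg14 at 0.56 and Atg4b at 0.49 after the subtraction, which left the first 3 of them past 1.5-fold. The share of all genes past 1.5-fold higher was not computed after the subtraction, so these 3 have no background beside them.

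**Figure D2:**
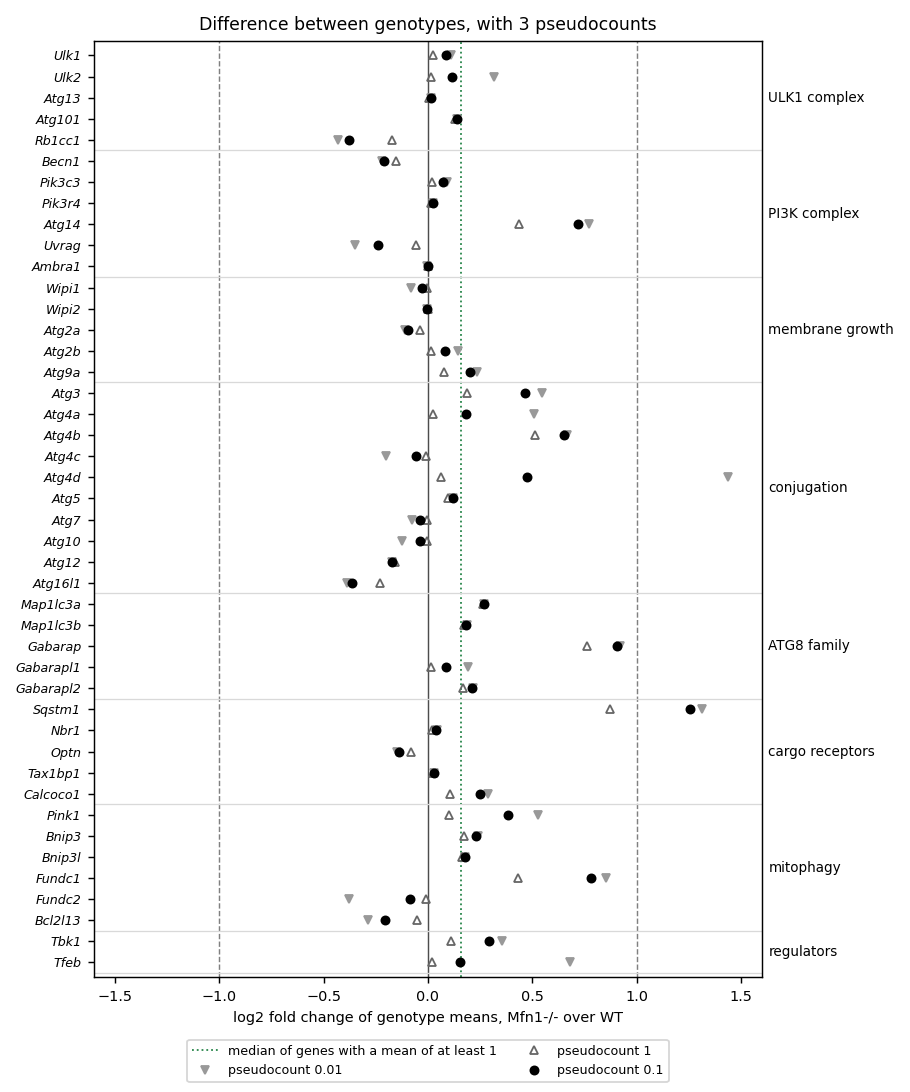
Log2 fold change of the genotype means for the 44 genes, Mfn1-/- over WT, with a pseudocount of 0.1 (filled circles), 0.01 (down triangles) and 1 (open triangles); dashed lines mark 2-fold and the dotted line the median of expressed genes, 0.16. Sqstm1 lies past the 2-fold line with pseudocounts of 0.01 and 0.1 and short of it (0.87) when 1 is added.

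Among the cargo receptors, which bind cargo, often ubiquitin-tagged, and ATG8 proteins at once, Sqstm1 stood apart from the other 4. Sqstm1 encodes p62, a receptor that gathers ubiquitinated proteins into condensates and is itself degraded by autophagy. Mfn1-/- oocytes averaged 3.1 normalized counts and WT oocytes 1.24, 2.39-fold on the pseudocount scale. This log2 fold change of 1.26 exceeded that of 96.8% of the 6226 expressed genes. Nbr1, a receptor with a similar domain layout, had means of 0.817 and 0.791 in Mfn1-/- and WT oocytes. Tax1bp1 had 4.75 and 4.65, and Optn (optineurin, which also acts in mitophagy) 1.2 and 1.33. Calcoco1, a receptor for the endoplasmic reticulum and Golgi, had 0.639 and 0.521. The log2 fold changes of these 4 ran from -0.14 to 0.25, and that of Sqstm1 was higher than that of Nbr1 by 1.21 and than that of Optn by 1.39.

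Sqstm1 (ENSMUSG00000015837.15) lies on chromosome 11 of GRCm38 from 50199366 to 50210827, on the minus strand. Its exons share 580 bases, 17.3% of their length, with Mrnip on the opposite strand, and the strand setting of the counting is not given in the sources used here. Mrnip averaged 4.86 in Mfn1-/- oocytes and 5.59 in WT, a log2 fold change of -0.20. Under the alternatives run, the log2 fold change of Sqstm1 ran from 0.87 with a pseudocount of 1 to 1.32 with no pseudocount. It was 1.14 after adjustment for transcript GC content over all genes and 1.02 when that adjustment was made on genes with a mean of at least 1. Of the 9 blood and vessel markers 4 had a row. Cd68, a lysosomal membrane glycoprotein used as a macrophage marker, was 1 of them, averaging 7.58 in Mfn1-/- oocytes and 0.672 in WT. The other 3 with a row, Lyz2, Pecam1 and Kdr, summed to 0.19 and 0.225, with Lyz2 at the lowest value of the table, 0.01, in Mfn1-/- oocytes. Whether other cells play a part in the Sqstm1 difference was not tested.

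The transcription factors NRF2, ATF4 and TFEB are known to drive autophagy and stress genes by short DNA motifs. Their motifs were searched on both strands in RefSeq promoter windows (GRCm38.p6, 250 bases before to 50 after each start), which 37 of the 44 genes had. The letters searched were TGACNNNGC for NRF2, TGATGNAA for ATF4 and TCACGTGA for TFEB. The NRF2 motif was present for 6 of the 37 genes (16.2%), beside 12.4% of all 32851 windows. These 6 were Atg13, Bcl2l13, Fundc2, Map1lc3b, Tax1bp1 and Ulk2. The ATF4 motif was present for 0 of 37, beside 3.97% of all windows, and the TFEB motif for 1 of 37 (Atg3), beside 0.974%. The listed genes were counted by gene and the background by window, so the units of these shares differ. None of these matches belonged to the 5 genes past 1.5-fold. Of these 5, Sqstm1 had a window, and which of the rest had one was not listed. A gene with no window can show no match. Most windows lack each motif, so the absence of a match says only that none was found. The 250 bases before the RefSeq start of Sqstm1 (chr11:50210821-50211070, minus strand) are shown because it is the gene past 2-fold, and 60 bases of the Atg3 window (chr16:45158731-45158790, plus strand) because they hold the TFEB match, in capitals, with its first base at position -72 from the start.
Sqstm1: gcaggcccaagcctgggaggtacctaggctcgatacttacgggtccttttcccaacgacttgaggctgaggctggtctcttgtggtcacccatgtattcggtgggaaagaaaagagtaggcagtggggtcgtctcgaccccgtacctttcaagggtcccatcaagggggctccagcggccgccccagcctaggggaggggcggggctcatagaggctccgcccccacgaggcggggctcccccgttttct
Atg3: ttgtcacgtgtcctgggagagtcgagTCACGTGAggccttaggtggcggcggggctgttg
Atg3 had a log2 fold change of 0.47, from averages of 0.612 in Mfn1-/- oocytes and 0.416 in WT.

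The 5 ATG8 genes encode the small ubiquitin-like proteins that are joined to the autophagosome membrane. In Mfn1-/- oocytes 5 of 5 had the higher mean, beside 56.7% of all genes. The count was 4 of 5 (36.7% of all genes) after subtraction of the median of expressed genes and 2 of 5 (38.9% of all genes) after the GC adjustment made on expressed genes. Gabarap showed the largest difference, averaging 6.57 in Mfn1-/- oocytes and 3.46 in WT (log2 fold change 0.91). It lies on chromosome 11 of GRCm38 from 69991143 to 69994951, exceeded 93.2% of expressed genes, and ranged from 0.75 to 0.93 under the alternatives. Map1lc3a had means of 40.3 and 33.4 (log2 fold change 0.27). Map1lc3b, which encodes the LC3B protein that is widely used as an autophagosome marker, had 12.4 and 10.9 (0.18). Gabarapl2 had 3.87 and 3.33 (0.21) and Gabarapl1 0.0731 and 0.0627 (0.09). The log2 fold change of Gabarap was higher than that of Gabarapl2 by 0.70 and than that of Map1lc3b by 0.72, differences that a shift shared by all genes leaves as they are. With the pseudogene copies described below added, Gabarapl2 had 0.44 and Map1lc3b 0.41, which narrows both differences.

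The mitophagy genes comprise the kinase Pink1 and 5 genes for proteins of the outer mitochondrial membrane. Fundc1, a receptor that is known for mitophagy under low oxygen, averaged 1.37 in Mfn1-/- oocytes and 0.754 in WT (log2 fold change 0.78). It lies on the X chromosome of GRCm38 from 17556564 to 17572325, and its value ran from 0.43 with a pseudocount of 1 to 0.90 with the GC adjustment made on genes with a mean of at least 1. Pink1, which accumulates on depolarised mitochondria and phosphorylates ubiquitin, had means of 0.27 and 0.184 (log2 fold change 0.38). Bnip3 had 2.94 and 2.49 (0.23) and its paralog Bnip3l, the receptor that clears mitochondria from maturing red cells, 10.3 and 9.09 (0.18). Bcl2l13, the mammalian counterpart of yeast Atg32, had 0.194 and 0.239 (-0.20), and Fundc2 had 0.0124 and 0.0191, close to the lowest value of the table. In this group 4 of 6 genes averaged more in Mfn1-/- oocytes, beside 56.7% of all genes, and 5 of 6 after the GC adjustment made on expressed genes, beside 38.9%. On the log2 scale the difference of Fundc1 exceeded that of Bnip3l by 0.61, and by less with the pseudogene copy of Bnip3l added (0.25).

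**Figure D3:**
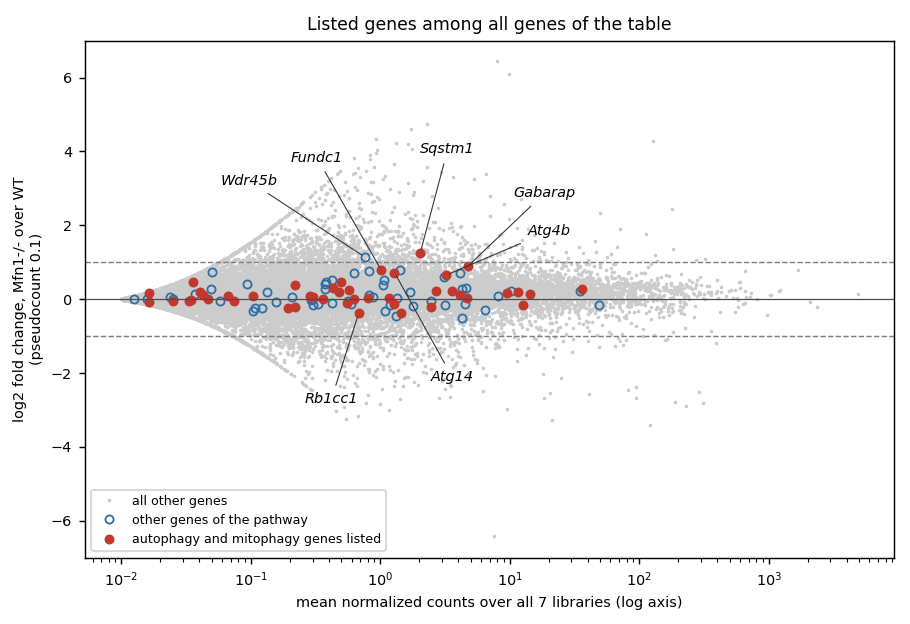
Log2 fold change (pseudocount 0.1, vertical axis) against the mean over the 7 libraries (log axis) for all genes of the table (grey), the 44 genes (filled circles) and 53 other genes of the pathway (open circles); dashed lines mark 2-fold. Sqstm1 and Wdr45b are the points of these lists past 2-fold, and Rb1cc1 is the lowest of the 44.

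The initiation and nucleation genes differed little, with Atg14 as the exception. In the ULK1 complex, the kinase genes Ulk1 (0.302 in Mfn1-/- and 0.279 in WT oocytes) and Ulk2 (0.0497 and 0.038) had log2 fold changes of 0.09 and 0.12. The regulatory subunits Atg13 (0.363 and 0.359) and Atg101 (15.1 and 13.7) had 0.01 and 0.14. The scaffold Rb1cc1, also called FIP200, had means of 0.567 and 0.767 and the lowest value of all 44 genes, -0.38.

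In the PI3-kinase complexes, Atg14 and Uvrag are alternative partners of Beclin 1, the first in autophagosome formation and the second mainly in endosome and autophagosome maturation. Atg14 averaged 1.69 in Mfn1-/- oocytes and 0.986 in WT, a log2 fold change of 0.72. Uvrag had 0.166 and 0.214 (-0.24), and the values of the pair differed by 0.96. The Uvrag value is uncertain, since stretches of its transcripts match 75 other genes, 25 of them with a row, such as Gm42553 (15.2 and 41.3), and 17.6% of its exon bases are shared with the antisense gene Gm45187. The exons of Atg14 (chromosome 14, 47540893 to 47570649) share 239 bases with the antisense gene Gm49004, which has no row. The subunits shared by both complexes had values between those of Atg14 and Uvrag. Becn1 had 2.26 and 2.63 (-0.21), Pik3c3, the lipid kinase Vps34, 0.311 and 0.291 (0.07), and Pik3r4 1.17 and 1.15 (0.02). Becn1 shares 43.9% of its exon bases with Cntd1 on the opposite strand, which had means of 0.149 and 0.246. Ambra1, which regulates the complex, had 0.0469 and 0.047.

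The 5 membrane growth genes had log2 fold changes between -0.10 and 0.20. Atg9a, the scramblase of the vesicles that seed the membrane, averaged 0.526 in Mfn1-/- oocytes and 0.445 in WT (log2 fold change 0.20). The lipid transfer genes Atg2a (0.528 and 0.571) and Atg2b (0.11 and 0.0985) had -0.10 and 0.08. The phosphoinositide binder Wipi2 had 0.627 and 0.628, and Wipi1 0.0332 and 0.0357.

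Of the 10 conjugation genes, Atg4b had the largest difference. It encodes the main protease that trims ATG8 proteins before conjugation and frees them afterwards. Mfn1-/- oocytes averaged 4.09 and WT oocytes 2.57, a log2 fold change of 0.65, and it lies on chromosome 1 from 93751500 to 93790610. Its paralog Atg4d had means of 0.0619 and 0.0165, which gave 0.48 with 0.1 added to each mean and 1.44 with 0.01 added, so at this low level the pseudocount sets the value. Atg4a (0.0511 and 0.033) and Atg4c (0.0223 and 0.0271) were under 0.1 in both genotypes as well. The ATG12 branch stayed within 1.5-fold. Atg12, the ubiquitin-like protein, had 11.9 and 13.4 (-0.17), its acceptor Atg5 4.32 and 3.97 (0.12), and their partner Atg16l1 1.22 and 1.6 (-0.36). The value of Atg16l1 exceeded 12.7% of expressed genes and that of Atg4b 87.1%. The enzymes Atg7 (0.0716 and 0.0761) and Atg10 (0.0313 and 0.035) were below a mean of 0.1 in both genotypes.

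The list holds 2 regulators. Tbk1, a kinase that phosphorylates cargo receptors, averaged 0.494 in Mfn1-/- oocytes and 0.384 in WT (log2 fold change 0.29). Tfeb, a transcription factor for lysosomal and autophagy genes, had 0.0237 and 0.011, near the lowest value of the table. By level, 11 of the 44 genes had a mean under 0.1, 15 from 0.1 to 1, 14 from 1 to 10 and 4 of at least 10. All 5 genes past 1.5-fold were in the class from 1 to 10, 5 of 14 there (35.7%), beside 17.3% of all genes of that class. Fundc1 and Atg14 reached this class only through their means in Mfn1-/- oocytes. In the class from 0.1 to 1 it was 0 of 15, beside 18.7% of all genes of that class. Under 0.1 the pseudocount leaves little room, and 5.03% of all genes there were past 1.5-fold higher.

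Of the 44 genes, 10 matched transcripts of other genes over at least 75 bases with at least 95% identity between GENCODE M21 transcripts. For 6 of them, copies annotated or named as pseudogenes have rows of their own. The copies of 5 are annotated as pseudogenes, and Atg4a-ps, named as one, is annotated as protein coding. Reads of such a gene may be divided between it and its copies, and how reads with several matches were counted is not given in the sources used here. Gabarapl2 has 3 such pseudogenes, of which Gm3724 (99.4% identity over 349 bases) averaged 47.8 in Mfn1-/- oocytes and 36.1 in WT. With its pseudogenes added, Gabarapl2 had summed means of 54.7 and 40.3, and its log2 fold change moved from 0.21 to 0.44. Map1lc3b with 3 pseudogenes, which alone summed to 51.8 and 37.3, had 64.2 and 48.2, and moved from 0.18 to 0.41. Bnip3l with Bnip3l-ps (176 and 148) moved from 0.18 to 0.25, and Bnip3 with Gm16439 (18.7 and 14.6) from 0.23 to 0.34. Atg4a with Atg4a-ps (5.03 and 3.02) moved from 0.18 to 0.72, and Rb1cc1 with Gm13961 (0.226 and 0.313) from -0.38 to -0.40. In each of the 6 the sum of the copies had the same sign as the gene. Only the copies annotated or named as pseudogenes were added. Map1lc3b matched 66 other genes in all, Uvrag 75, Atg12 15 and Atg9a 6. Of the 5 genes past 1.5-fold, Sqstm1, Gabarap, Fundc1 and Atg14 had no transcript of another locus matched this way, and Atg4b had a match of 84 bases to Kcnmb4, which has no row.

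**Figure D4:**
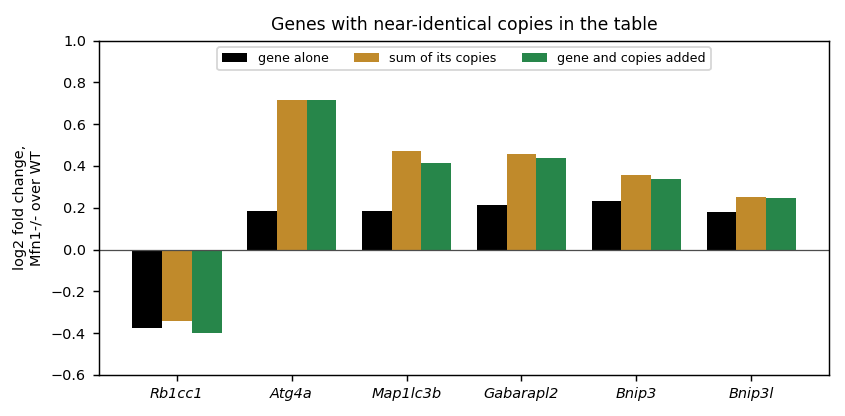
Log2 fold change (pseudocount 0.1), Mfn1-/- over WT, of the 6 genes with near-identical pseudogene copies in the table: the gene alone (black), the sum of these copies (ochre) and both added (green). Adding the copies moves Atg4a from 0.18 to 0.72 and turns no gene from one side of 0 to the other.

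A second list of 54 genes of the pathway, of which 53 had a row (parkin under its older symbol Park2), covered other early steps, autophagosome fusion with the lysosome, other receptors, PINK1-parkin partners and upstream control. Their median log2 fold change was 0.06, and -0.10 with the median of expressed genes subtracted. Within it, Wdr45b, which encodes the phosphoinositide binder WIPI3, was the only gene of this list past 2-fold higher (1 of 53, against 4.87% of all genes), averaging 1.15 in Mfn1-/- oocytes and 0.467 in WT (log2 fold change 1.14). This became 0.98 after subtraction of the median of expressed genes and 0.55 with a pseudocount of 1. None of the 53 was past 2-fold lower. In all, 7 were past 1.5-fold higher, Pgam5 (1.91 and 1.07), Sh3glb1 (1.1 and 0.608) and Nipsnap1 (5.31 and 3.23) among them, and 0 past 1.5-fold lower, against 12.4% and 6.88% of all genes. The lowest was Rab7, the GTPase of late endosomes, with 3.42 and 4.9 (log2 fold change -0.51). With the median of expressed genes subtracted, fewer than 7 stayed past 1.5-fold higher. Rab7 and Rubcn (1.08 and 1.51, log2 fold change -0.45 before the subtraction) then lay past 1.5-fold lower, beside 10.5% of all genes. Parkin, the ubiquitin ligase that PINK1 activates, had 0.0128 and 0.0122, close to the lowest value of the table in both genotypes. Of the 9 regulators upstream, 3 were higher and 6 lower. Zkscan3, with a mean under 0.1, had 0.0938 and 0.0171 (log2 fold change 0.73, or 1.94 with a pseudocount of 0.01). Tfe3, a relative of TFEB, had 1.64 and 1.89 (-0.19), and Mtor 0.149 and 0.163.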

How the data were processed

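RNA from 5 pooled oocytes per library was amplified with Smart-Seq2 and sequenced. The authors used Cutadapt and the FASTX-Toolkit for trimming and quality filtering and STAR for alignment to GRCm38/mm10, then counted reads per gene. The annotation, the counter and the scale of normalization are not given in the sources used here. The deposited signal comprises, for each gene, the average normalized count of either genotype (lowest value 0.01) and a total. That total matched weights of 3 Mfn1-/- and 4 WT libraries to 1% in 100% of genes. A further 4 columns hold the authors' own comparison (p-value, FDR, ratio, fold change) and were not used. There were 0 unused columns of per-sample values. Depth per library is unknown.

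From the means, log2 fold changes (pseudocount 0.1) and counts past 2-fold were computed with Python 3.11.15, numpy 2.4.6 and pandas 2.3.3. Limma was planned for values of single libraries and could not be fitted. Code was tested on simulated data. Positions, overlaps and GC content came from GENCODE M21. Transcripts were compared with blastn 2.17.0. All 44 genes of the list were named, and of the second list those past 2-fold with a mean of at least 0.1, with others named after their values were seen. The genes and lists were chosen with earlier results of these data known. The alternatives changed the pseudocount to 0.01 or 1 and the minimum mean to 0.1 or 1, or used centring, a GC adjustment in 20 bins, a 1.5-fold threshold and, chosen after seeing the data, no pseudocount and a GC adjustment on genes with a mean of at least 1. The gene pairs, the sums with copies, the marker sums without single genes and the promoter motifs were also chosen after the data were seen.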

Additional observations from a re-analysis of the deposited data

How the results depend on the processing

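The number of the 44 genes past the threshold and higher was 1, and became 2 with a pseudocount of 0.01 (Sqstm1 and Atg4d), 0 with a pseudocount of 1, 5 with a 1.5-fold threshold and 3 with no pseudocount (Sqstm1, Atg4d and Tfeb). The shares of all genes past the threshold and higher were 4.87%, 10.5%, 0.914%, 12.4% and 12.7% in that order. In each of these settings 0 of the 44 were past the 2-fold threshold and lower. Of all genes, 6.63% were past 2-fold lower with a pseudocount of 0.01, 0.481% with 1 and 8.31% with none. The number past 1.5-fold and higher ran from 2 with a pseudocount of 1 to 8 with no pseudocount. The share of all genes past 1.5-fold higher was not computed for these settings. With no pseudocount, Fundc2 was also past 1.5-fold lower (1 of 44, beside 15.3% of all genes). For the second list the number higher was 1, and became 2 with a pseudocount of 0.01 and with no pseudocount, 7 with a 1.5-fold threshold, and 0 with a pseudocount of 1, with a minimum mean of 1 and with the median of expressed genes subtracted. The share of all genes was 5.44% with that minimum mean, 3.58% with that median subtracted, and otherwise as given above. The number of the 44 genes with a higher mean was 29, and became 17 with that median subtracted, 16 with the GC adjustment on genes with a mean of at least 1, and 14 with a minimum mean of 1, which leaves 18 genes. The shares of all genes with a higher mean were 56.7%, 36.7%, 38.9% and 65.4% in that order. The other 109 of 122 counts and medians stayed within 1.5 times or 1.5-fold of the value given, as did 329 of 337 values of single genes. Within that range the median of the 44 genes turned to -0.07 with the median subtracted and -0.08 with the GC adjustment on genes with a mean of at least 1. The median of the second list turned to -0.10 and -0.07 there.

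With only 1 mean per genotype, the size of the error is unknown. No paired analysis was possible because the table carries no values of single libraries, and for the same reason leaving out each replicate was not run. Fold changes of genes with a mean under 0.1 are set mostly by the pseudocount.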
